A study of Mus musculus with 5 samples.

Results

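Cytoplasmic ribosomal protein genes were followed through single-cell RNA libraries of mouse colon. Members were chosen by name: gene symbols starting with Rpl or Rps and a digit, without pseudogene symbols and without the Rps6k kinases, that were listed in all 5 libraries. The rule gave 81 of 23173 genes, 33 of the small (40S) and 48 of the large (60S) ribosomal subunit by name. Of these, 73 were standard ribosomal proteins and 8 were paralogs, gene copies or genes that share only the name (Rpl22l1, Rpl36al, Rpl3l, Rpl6l, Rpl7l1, Rps19bp1, Rps27l and Rps27rt). Rpl39l was listed in 4 libraries and was left out. Members with other symbols, such as Rplp0 and Fau, were kept as a separate list. Of the 5 libraries, all made on the inDrop droplet platform, 4 held colon tumors that had been induced with AOM/DSS, a carcinogen followed by a colitis-inducing agent, in WT mice treated with 5FU+Irinotecan, a pyrimidine analog and a topoisomerase I poison. They were taken at day 1 (replicates 1 and 2, here early) and at day 3 and day 6 (1 library each, here late). A single index structure, read on the BGI MGI-Seq, was used for day 1 replicate 1 and for day 3. The dual index (TruDrop) structure, read on the Novaseq6000, was used for day 1 replicate 2 and for day 6. Where values of the treated libraries are listed, they stand in order of day, with replicate 1 of day 1 before replicate 2. The fifth library was a dual index preparation of normal colon from an untreated WT mouse, in which crypts were shaken off to enrich stroma. No untreated tumor library was analysed here, so a difference from untreated tumors was not measured.

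Ribosomal proteins surround the ribosomal RNA of both subunits, and every growing cell makes them in nearly equal numbers. Their mRNAs are among the most abundant of the cell, and many start with a C followed by a run of pyrimidines (the 5′ terminal oligopyrimidine or TOP motif), through which mTOR signalling sets their translation. In intestinal epithelium, dividing cells of the crypt are known for high ribosome production, and DNA-damaging drugs can slow it.

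The TOP motif was looked for at the annotated starts of the members, because it is a feature the choice by name did not use. A start in the RefSeq tables (GRCm38.p6) was found for 61 of the 81 members. On the sense strand, a C with at least 4 further C or T bases began 13 of the 61 members (21.3%) and 451 of 15499 other measured genes with a start (2.91%). When the run could begin within 5 bases of the annotated start, 29 of 61 members (47.5%) and 22.6% of other genes held it. A match describes the annotated letters only. The windows below hold 15 bases before and 10 bases from the start, with capitals for the pyrimidine run that begins at the start. They belong to members on which later results turn: Rps6, Rps23 and Rps15a differed between library structures, Rps27 and its copies differed between cell types, and Rpl39 differed between days.
Rps6, chr4:86857358-86857382, minus strand: aagcggaagtcgggcCTCTTTTTCg
Rps15a, chr7:118116138-118116162, minus strand: ctctctttctgccatCTTCCCTCgc
Rps27, chr3:90213639-90213663, minus strand: atttccgctttcgctCCTTTCCggc
Rps27rt, chr9:114982730-114982754, minus strand: agaacttatcccttgCTTTCCggcg
Rps27l, chr9:66946071-66946095, plus strand: ccactcctccccgccgcctctatcc
Rps23, chr13:90923107-90923131, plus strand: gccttcggctgggcggggcttcccg
Rpl39, chrX:37085213-37085237, minus strand: cctaagctccgcctcTagcgacttc
Rps6, Rps15a, Rps27 and Rps27rt began with the motif. The first annotated start of Rps27l and the starts of Rps23 and Rpl39 did not. Each of these genes did hold the run when it could begin within 5 bases of an annotated start.

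Cells with at least 500 genes and at most 15% mitochondrial counts were kept. This left 748, 2403, 1419 and 2826 treated cells per library and 1095 stroma library cells, with 5124405 to 16786230 UMIs and medians of 2903 to 3601 UMIs per cell. Cell types were rebuilt by clustering without the members and named from marker lists, with the ending -like. A cluster of 571 cells led by Mt4, Spock2 and Wif1 met no list and stayed unnamed. Columnar-like and squamous-like clusters were mostly of 1 library each: clusters t0, t8 and t11 held columnar-like cells of day 6, t1 and t12 mostly those of day 3, and t4 and t5 mostly those of day 1 replicate 2. Clusters t0 and t5 had a marker of another type (Zg16 and F3) and no columnar marker among their 10 leading genes, so columnar-like results are also given by cluster and without both. The T cell-like cluster also had the mast cell proteases Mcpt2 and Mcpt1 among its leading genes. Libraries shared 4 to 41 cell barcodes per pair. Hemoglobin RNA, from red cells or as free RNA, summed to 5612, 11974, 564 and 426 CPM (counts scaled to a common total of UMIs, as below) in the treated libraries and to 9.66 in the stroma library. Day 1 replicate 2, with the highest sum, was also the only library with enough erythroid-like cells to be summed (78 cells). How much of each sum was free RNA, and the part of free RNA in the shares, was not tested.

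Members took between 6.36% and 9.45% of the UMIs of a library. The share was 6.60% in day 1 replicate 1, 6.41% in day 1 replicate 2, 6.36% in day 3 and 7.98% in day 6. The first 3 libraries lay close together, and day 6 stood above them. The single stroma library held 9.45%. Counting error was small beside the spread between libraries, with 95% Wilson intervals of 6.58 to 6.62 in day 1 replicate 1 and 7.97 to 7.99 in day 6. These intervals cover counting error only. Since UMIs were counted from 3′ ends, levels of different genes were compared as CPM without a length correction.

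Rpl23, of the large subunit, had the highest mean level, 3.88% of all member UMIs averaged over the 5 libraries. It was followed by the small subunit genes Rps14 (3.602%), Rps13 (3.16%) and Rps2 (3.14%) and by the large subunit gene Rpl27a (3.13%). These 5 genes together made up 16.9% of member UMIs, and the 10 highest 30.3%. Levels spanned 2735 CPM (Rpl23) to 0.227 CPM (Rpl3l, known from muscle) on average. The mean was at least 100 CPM for 76 members and below it for Rpl29 (86.2), Rpl7l1 (64.7), Rps19bp1 (10.6), Rpl23a (5.59) and Rpl3l. Rpl29 and Rpl23a are standard ribosomal proteins with many near-identical copies in the genome, and the counting may have split or dropped their reads. The 81 genes lay on 19 chromosomes, with 13 on chromosome 7 and 4 on the X chromosome.

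Among the treated cells, squamous-like and T cell-like cells gave members the largest shares of their UMIs and erythroid-like cells the smallest. The mean over libraries was 9.34% ± 1.59 (SD, n = 4 libraries) in squamous-like cells, 9.26% in T cell-like cells (8.28% in day 1 replicate 2, above the 8.15% of squamous-like cells there, and 10.2% in day 6, below their 11.6%) and 7.42% ± 1.05 (n = 3) in Paneth-like cells. Macrophage-like (6.57% ± 0.843, n = 3), goblet-like (6.56% ± 0.704, n = 3), unnamed (6.42% ± 0.570, n = 4), columnar-like (6.39% ± 0.342, n = 4) and plasma-like cells (6.28% ± 0.641, n = 3) followed. Lymphatic endothelial-like (5.99% ± 1.41, n = 3), endothelial-like (5.96% ± 0.580, n = 4) and neutrophil-like cells (5.80% ± 0.383, n = 4) lay below them. Fibroblast-like cells were at 5.37% ± 1.18 (n = 4) and enteroendocrine-like cells at 5.02% ± 0.770 (n = 3). Each SD is the spread of 1 type between libraries and does not measure a difference between types of the same library. The means also cover unlike libraries: the Paneth-like one lacks day 6 and the lymphatic endothelial-like one day 1 replicate 1. Macrophage-like, goblet-like, plasma-like and enteroendocrine-like means lack day 3. The order of the means was not tested. Erythroid-like cells held 3.02% in the single library with enough of them. Such cells are known to lose their ribosomes as they mature, but whether this bears on the share was not tested. Day 6 had the highest value of the treated libraries in 9 of its 12 types, with the unnamed cluster counted as a type.

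**Figure D1:**
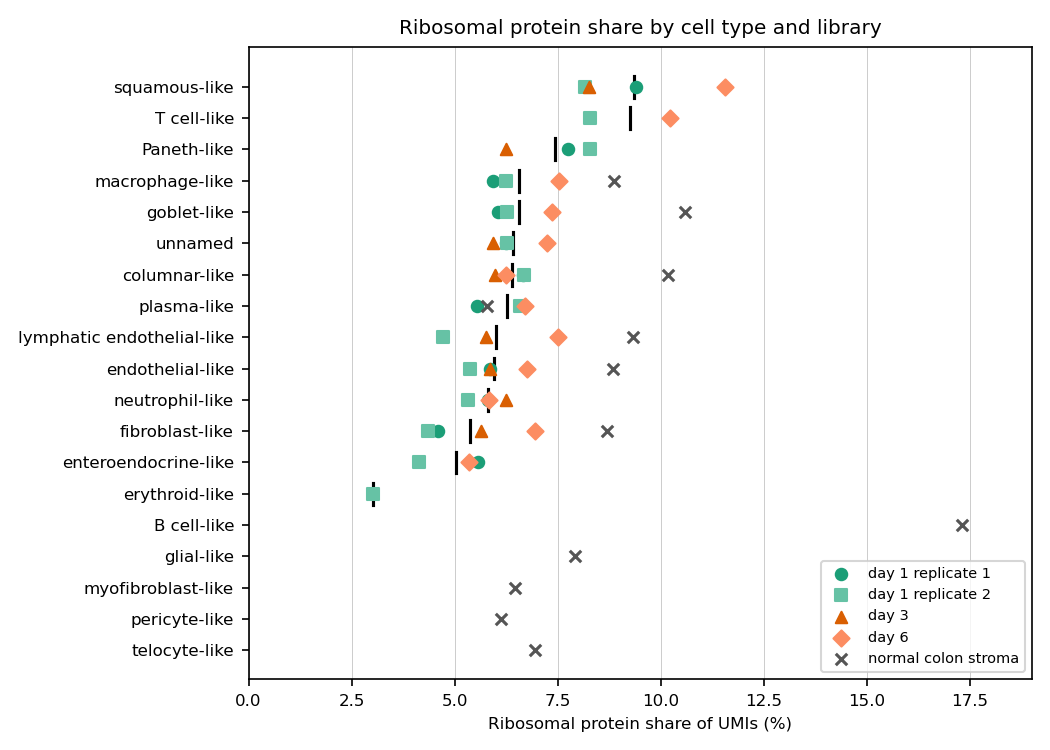
Share of UMIs from the 81 members (x axis, percent) for each cell type (y axis); each symbol is the sum over the cells of 1 library, and the black bars are means over the treated libraries. Squamous-like cells lie at 8.15% to 11.6% and columnar-like cells of the treated libraries at 5.97% to 6.68%, while the B cell-like cells of the stroma library are at 17.3%.

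Squamous-like cells were set against columnar-like cells of the same library, since the squamous epithelium is a feature by which the study describes these tumors. The share was 9.40% against 6.65% in day 1 replicate 1, 8.15% against 6.68% in day 1 replicate 2, 8.25% against 5.97% in day 3 and 11.6% against 6.24% in day 6. It was higher in squamous-like cells in 4 of 4 libraries, by 2.96 points on average (exact two-sided sign permutation over 4 libraries, p = 0.125, the smallest that 4 pairs allow). Without clusters t0 and t5 the difference was 2.89 points. By cluster, the 3 squamous-like clusters of day 6 held 13.3% (t7), 11.98% (t17) and 10.03% (t9). Its 3 columnar-like clusters held 8.23% (t0), 7.49% (t11) and 3.45% (t8). In day 1 replicate 2 the ranges overlapped, with squamous-like clusters at 9.09%, 8.47% and 6.61% and columnar-like clusters at 7.11% and 5.86%. Cluster t8, at the lowest value, was led by genes of interferon and bacterial defence such as Ifit1bl1, Gbp2 and Nos2.

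Nearly all members followed this difference. In edgeR's quasi-likelihood test on counts summed per library and type, with the library as a block, 59 of 80 members tested rose in squamous-like cells and 0 fell, where 10.7% of all 11534 genes tested rose and 11.6% fell (adjusted p under 0.05, Benjamini-Hochberg). The median log2 change was 0.57 over members and 0.01 over all genes, and 78 of 80 members had a positive value. The exceptions were Rps27l (-0.22 ± 0.17 SE) and Rpl7l1 (-0.003 ± 0.18 SE), neither of which passed the test. The count of calls depended on single libraries. It was 2 without day 1 replicate 1, 21 without day 1 replicate 2, 23 without day 3 and 31 without day 6, with medians between 0.49 and 0.59, and it was 30 without clusters t0 and t5.

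Rps27, a zinc finger protein of the small subunit, had the largest called change. Its TMM-scaled level was 699, 592, 726 and 1295 CPM in squamous-like cells of the treated libraries, and 420, 358, 406 and 622 CPM in columnar-like cells. It was higher in squamous-like cells of each library, by 0.84 ± 0.15 (SE) on the log2 scale (edgeR adjusted p = 0.00467). Rps16 followed at 0.82, Rpl13a at 0.79, the Rps27 retrogene Rps27rt at 0.76 and Rps15a at 0.76. The smallest called changes were those of Rpl34 and Rpl7a (0.47 each), Rps27a and Rpl10 (0.48 each) and Rpl36 (0.49). Rps27l, the paralog of Rps27 that is known as a p53 target, was at 124, 204, 69.4 and 129 CPM in squamous-like cells and at 181, 194, 70.9 and 169 CPM in columnar-like cells of the same libraries. The squamous-like value was lower in 3 of 4 libraries.

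Other genes of protein synthesis were counted in the same comparison, in which 10.7% of all 11534 genes tested rose and 11.6% fell. Of 7 tested ribosomal genes with other symbols 5 rose and 0 fell. Of 15 genes listed for translation, which were factors and others such as Tpt1, Naca, Btf3 and Nap1l1, 2 rose. Of 27 ribosome assembly genes 4 rose, and of these lists none fell. Both counts lay near the share of all genes that rose. Of 74 mitochondrial ribosomal protein genes 0 rose and 1 fell, with a median log2 change of -0.03. Of 12 p53 targets 1 rose and 0 fell.

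Between the other cell types, single members passed the test. Neutrophil-like cells held a smaller share than macrophage-like cells in 3 of 3 libraries, with differences of -0.129, -0.934 and -1.69 points (mean -0.919, exact two-sided sign permutation p = 0.25, the smallest that 3 pairs allow). Of 78 members tested 2 fell and 0 rose in neutrophil-like cells, where 13.2% of 6909 genes fell and 11.7% rose. Rpl10, which joins the large subunit late in its assembly, was at 1793, 784 and 669 CPM in neutrophil-like and 2495, 1210 and 1539 CPM in macrophage-like cells of both day 1 libraries and day 6 (log2 change -0.71 ± 0.20 SE, edgeR adjusted p = 0.00381). Rps4x, the X-linked gene of a small subunit protein, changed by -0.69 ± 0.21 (edgeR adjusted p = 0.00624). Both calls were absent in DESeq2, without day 1 replicate 1 and without day 1 replicate 2.

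T cell-like cells held a larger share than macrophage-like cells in both libraries that had enough of them, by 2.03 and 2.70 points (mean 2.37, exact sign permutation p = 0.5, the smallest that 2 pairs allow). Of 78 members 3 rose in T cell-like cells and 0 fell, where 4.83% of 7725 genes rose and 9.54% fell. Rpl13a rose by 0.79 ± 0.24, Rps27 by 0.73 ± 0.24 and Rpl12 by 0.66 ± 0.23 on the log2 scale (edgeR adjusted p = 0.00955, 0.0179 and 0.0337). Rps27 stood at 1061 and 1398 CPM in T cell-like and 539 and 977 CPM in macrophage-like cells of day 1 replicate 2 and day 6. DESeq2 called 0 members and total-count scaling called 19. The share of all genes called under these 2 settings is not given, so the 19 are not read as a trait of the members.

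Fibroblast-like cells were below columnar-like cells in 3 of 4 libraries. The differences were -2.07, -2.33, -0.333 and 0.697 points (mean -1.01, exact sign permutation p = 0.375). EdgeR called 0 of 78 members in either direction, where 9.87% of 8696 genes rose and 7.95% fell. An unadjusted p under 0.05 was found for 4 members, DESeq2 called 0, and without a filter on low counts edgeR called 17. The share of all genes called without the filter is not given, so the 17 are not read as a trait of the members. Of the 78 members 3 had a positive log2 change, and the median was -0.24 against -0.08 over all genes.

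Cycling cells were compared with other cells of the same type and library. Each cell with at least 1000 UMIs was thinned to 1000 UMIs. It was called cycling with 8 or more UMIs from the S and G2M lists of Seurat (95 genes in the files) and other with 3 or fewer. Cells between these limits and cells with fewer than 1000 UMIs were left out. In columnar-like cells the member share was higher in cycling cells in 4 of 4 libraries: it was 8.15% against 6.09% in day 1 replicate 1, 7.98% against 6.32% in day 1 replicate 2, 6.70% against 5.36% in day 3 and 8.53% against 5.15% in day 6. The mean difference was 2.11 points (exact two-sided sign permutation, p = 0.125, the smallest possible). Cycling cells numbered 23, 77, 200 and 181, and other cells 81, 594, 300 and 680. The median depth was 5687, 3900, 2750 and 2648 UMIs in cycling and 4806, 4819, 4315 and 3241 UMIs in other cells, so it was higher in cycling cells in day 1 replicate 1 only. Over all columnar-like cells of a library, Spearman's rho of the share with the UMI count was between -0.07 and 0.002 in the first 3 libraries and -0.42 over 1352 cells of day 6, as a description.

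The difference was also seen within clusters. In the 7 pairs of treated library and columnar-like cluster with enough cells, cycling cells held 0.169 to 2.97 points more than other cells, and the cycling share was the higher in each. In the stroma library, 24 cycling columnar-like cells held 15.4% and 266 others 9.12%. All 24 lay in cluster s1 with 85 others at 14.5%, so most of that gap lay between clusters. Squamous-like cells gave no common direction, with differences of -0.430, 1.28, -0.503 and 1.31 points in the 4 treated libraries (mean 0.413, exact sign permutation p = 0.5). Within squamous-like clusters 2 of 4 differences were positive. The difference between columnar-like and squamous-like cells was 1.70 points (exact sign permutation, p = 0.125, the smallest possible).

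**Figure D2:**
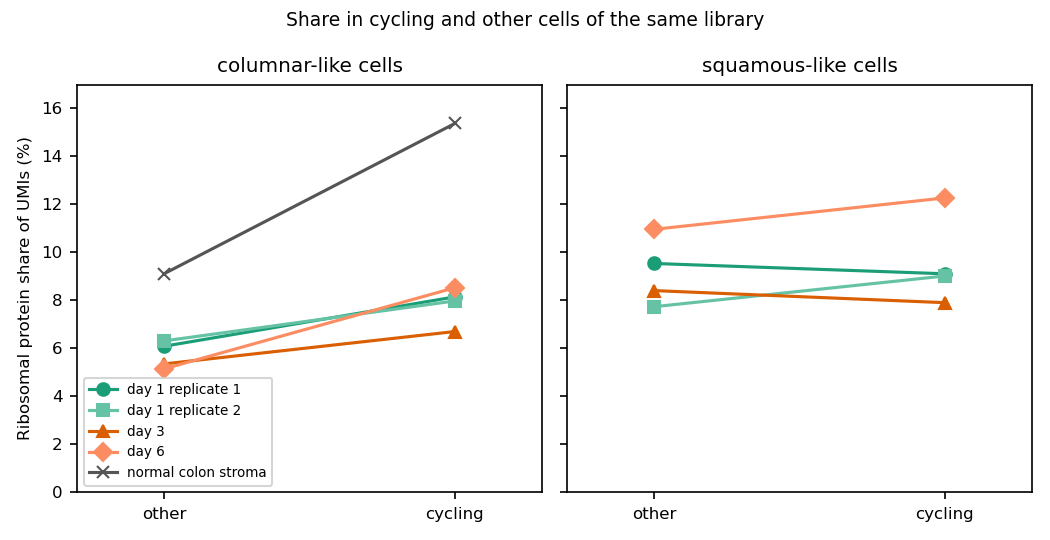
Member share of UMIs (y axis, percent) in other and cycling cells of the same library, joined by a line, for columnar-like cells (left) and squamous-like cells (right); each line is 1 library. All 5 lines of columnar-like cells rise, by 1.35 to 6.26 points, whereas 2 of the 4 lines of squamous-like cells fall.

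By gene, 29 of 79 members rose in cycling columnar-like cells and 0 fell, where 14.6% of 9725 genes rose and 16.1% fell (edgeR, adjusted p under 0.05). All 79 had a positive log2 change, with a median of 0.26 against 0.002 over all genes. The largest called change was that of Rpl7l1, whose product works in the assembly of the large subunit and is no standard ribosomal protein. It was at 93.1, 58.9, 153 and 87.0 CPM in cycling and 59.7, 44.9, 107 and 49.9 CPM in other cells. It was higher in cycling cells of each library (log2 change 0.59 ± 0.15 SE, edgeR adjusted p = 0.00787). Rps19bp1 had a larger value that did not pass the test (0.76 ± 0.28 SE, edgeR adjusted p = 0.0557). Rpl5, which carries the 5S ribosomal RNA into the large subunit, was at 1331, 1125, 741 and 1009 CPM in cycling and 948, 780, 571 and 710 CPM in other cells (0.48 ± 0.11, edgeR adjusted p = 0.00342). Rpl35 (0.48), Rpl15 (0.47) and Rpl6l (0.44) followed, and the smallest called changes were those of Rps13 and Rps12 (0.28 each), Rps15a and Rpl27a (0.31 each) and Rpl18 (0.32). The number of members called was 8 without day 1 replicate 1, 7 without day 1 replicate 2, 16 without day 3 and 21 without day 6, and it was 68 with total-count scaling. The shares of all genes called under these settings are not given beside them.

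Genes that build ribosomes were counted in the same comparison, in which 14.6% of all 9725 genes tested rose and 16.1% fell. Of 27 ribosome assembly genes 18 rose and 0 fell in cycling columnar-like cells, with a median log2 change of 0.85. Nucleophosmin (Npm1, 1.12 ± 0.13 SE), nucleolin (Ncl, 1.04 ± 0.13) and the box C/D ribonucleoprotein gene Nop58 (1.26 ± 0.16) rose. Of 74 mitochondrial ribosomal protein genes 29 rose and 0 fell (median 0.43). Of the 15 genes listed for translation 6 rose and 1 fell (Tpt1, -0.33 ± 0.12). Of the 7 tested ribosomal genes with other symbols 1 rose, and Rplp0 had 0.12 ± 0.10. Of 11 p53 targets 0 rose and 3 fell: Pmaip1, Trp53inp1 and the cell cycle inhibitor Cdkn1a (-0.62 ± 0.21). As a check of the cells, 37 of 38 S and 47 of 47 G2M genes rose, which the definition of the groups fixed. In cycling squamous-like cells edgeR called 0 of 78 members, and 0 had an unadjusted p under 0.05, where 5.39% of 6199 genes rose and 4.52% fell. DESeq2 also called 0.

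Late libraries were compared with early ones because the study treats day 3 and day 6 as replicates of late treatment. The share did not move in one direction. Late minus early was 0.667 points over all kept cells (exact permutation of 2 against 2 libraries, p = 1), -0.559 in columnar-like cells (p = 0.333, the smallest possible), 1.13 in squamous-like cells (p = 0.667) and 1.83 in fibroblast-like cells (p = 0.333). Fibroblast-like cells were at 4.58% and 4.34% in the early and at 5.64% and 6.94% in the late libraries. Within single index libraries the difference was -0.239 points over all cells, -0.686 in columnar-like, -1.14 in squamous-like and 1.05 in fibroblast-like cells. Within dual index libraries it was 1.57, -0.433, 3.41 and 2.60 points. The direction in squamous-like cells and over all cells thus turned with the library pair, and that in columnar-like and fibroblast-like cells did not. By the median over cells the columnar-like difference was -0.02 points.

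Without a block and with the filter on low counts, edgeR called 0% of genes in the late against early comparisons, and so 0 members. Without the filter it called 1 member, Rpl39, in columnar-like and in squamous-like cells, and with library structure as a block it called Rpl39 in squamous-like cells. In columnar-like cells 732 of 12816 genes and 2 of 80 members had an unadjusted p under 0.05, in squamous-like cells 386 of 9748 genes and 1 of 79 members, and in fibroblast-like cells 269 of 3333 genes and 1 of 75 members. DESeq2 called 1 member, Rpl39, in columnar-like and in squamous-like cells and 0 in fibroblast-like cells. The 5 lowest log2 changes in columnar-like cells were those of Rpl39 (-3.56), Rps3a1 (-1.35), Rpl22l1 (-1.01), Rps27l (-0.66) and Rps19bp1 (-0.56), and the same 5 genes had the lowest values in squamous-like cells. The highest values in columnar-like cells were those of Rpl23 (0.68), Rps14 (0.67), Rpl7l1 (0.64), Rps13 (0.63) and Rps4x (0.55), and Rps14 (0.91), Rps6 (0.91), Rpl23 (0.76) and Rps4x (0.71) were among the highest in squamous-like cells. Without 1 library the values of Rpl23, Rps3a1, Rps4x and Rps6 changed sign in one or both cell types.

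Rpl39 stood apart from all other members. The gene lies on chromosome X (chrX:37082520-37085402, minus strand, GRCm38) and codes for one of the smallest ribosomal proteins, at the exit tunnel of the large subunit. Over all kept cells it was at 852 and 455 CPM in day 1 replicates 1 and 2, and at 54.4 CPM in day 3 and 52.4 CPM in day 6. The lower early value was 8.37 times the higher late one. For Rpl22l1, the member with the next widest gap in that direction, this ratio was 1.69. All early libraries lay above all late ones for 4 of the 76 members at 100 CPM, and all late above all early for 3. The share over all genes was not computed, so these counts are not read as a trait of the members. For Rpl39, the stroma library was near the early level, at 750 CPM.

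The step of Rpl39 was present in every cell type with enough cells. Columnar-like cells were at 802 and 469 CPM early and at 47.5 and 42.3 CPM late. Squamous-like cells were at 1344 and 621 CPM early and at 74.6 and 65.8 CPM late. Endothelial-like cells were at 804 and 408 CPM early and at 42.2 and 35.9 CPM late. Fibroblast-like cells were at 448 and 362 CPM early and at 73.5 and 43.2 CPM late, from 7 to 86 UMIs a library. Neutrophil-like cells were at 676 and 361 CPM early and at 71.1 CPM in day 3, with 0 UMIs in day 6 among 24 cells. Early and late values did not overlap in any of these types. EdgeR gave an adjusted p of 0.262 for the log2 change of -3.56 ± 0.49 (SE) in columnar-like cells and of 0.336 for -3.64 ± 0.65 in squamous-like cells. DESeq2 gave adjusted p of 5.5e-09 and 3.6e-06 for the same sums. With library structure as a block, edgeR's adjusted p was 0.115 and 0.000908. Over all alternatives the adjusted p ran from 5.5e-09 to 0.768 in columnar-like cells and from 3.6e-06 to 0.362 in squamous-like cells, with the log2 change between -4.06 and -3.04.

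**Figure D3:**
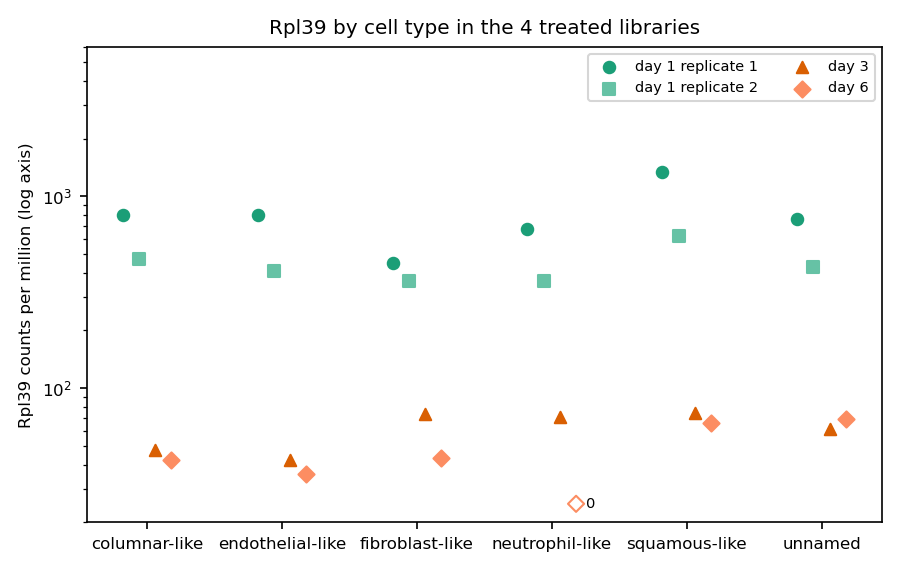
Rpl39 level (y axis, CPM, log scale) in 5 named cell types and the unnamed cluster (x axis); each symbol is 1 treated library, and the open symbol marks a count of 0. In each type both day 1 libraries lie above day 3 and day 6, with 362 to 1344 CPM in fibroblast-like and squamous-like cells at day 1 and 43.2 to 74.6 CPM later.

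Most other members that deviated did so with the structure of the library. For the 76 members at 100 CPM, the log2 share of member UMIs in the dual minus the single index library had an SD of 0.856 over genes between the early libraries and of 1.07 between the late ones. The 2 sets of differences had a Pearson correlation of 0.919 and a Spearman correlation of 0.918 over the 76 genes, and 63 had the same sign; genes are not independent replicates, and index, sequencer and day of harvest come with the library. In both pairs 12 members differed by more than 1 on this scale, 9 of them higher in the dual index libraries. The same differences were not computed over all genes, so whether members differ more with structure than other genes was not tested. Rps6, the substrate of S6 kinase in the small subunit, was at 105 and 85.7 CPM in the single index libraries (day 1 replicate 1 and day 3), and at 836 and 1392 CPM in the dual index ones (day 1 replicate 2 and day 6). Rps23, at the decoding centre, was at 188 and 100.0 CPM against 891 and 1127 CPM. Rps4x was at 574 and 432 CPM against 1678 and 3027 CPM. Rpl6l, named for its likeness to Rpl6, was at 48.0 and 36.3 CPM against 225 and 343 CPM. For these 4 genes both single index libraries lay below both dual index ones, and the stroma library, also dual index, had 857, 1553, 2387 and 327 CPM. Rps3a1 was also higher in the dual index library of both pairs, by 2.11 early and 0.83 late on the log2 scale.

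Other members went the other way. Rpl23 was at 3076 and 5088 CPM in the single and 1239 and 1548 CPM in the dual index libraries. Rps15a was at 958 and 714 CPM against 269 and 299 CPM, and Rpl10 at 2229 and 1980 CPM against 1062 and 1171 CPM. The ratio of small to large subunit UMIs followed the structure as well: over cell types it was at most 0.901 in day 1 replicate 1 and 0.830 in day 3, and at least 0.935 in day 1 replicate 2 and 1.03 in day 6. In the stroma library it ran from 0.875 to 1.01.

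**Figure D4:**
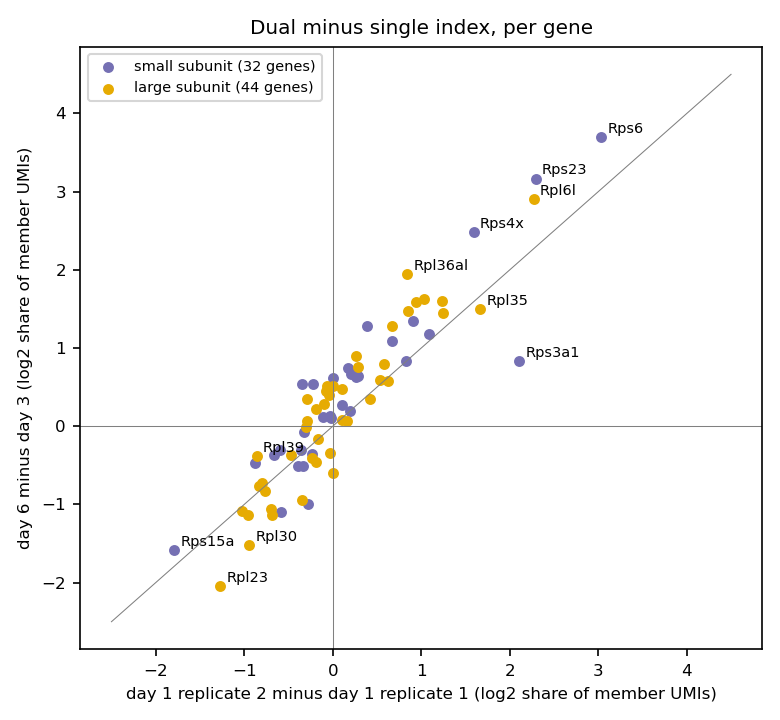
Difference in log2 share of member UMIs between the dual and the single index library, early (x axis) and late (y axis), for the 76 members with a mean of at least 100 CPM; each point is 1 gene and the diagonal marks equal values. Rps6, Rps23 and Rpl6l lie far to the upper right and Rpl23 and Rps15a to the lower left. Rpl39 lies on the lower left side as well, closer to the centre than Rpl23 and Rps15a. It was at 455 CPM in the dual and 852 CPM in the single index library early, and at 52.4 and 54.4 CPM late.

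Range over cell types, the measure by which deviating members were chosen, was therefore read also within libraries. Over 12 types and averaged over libraries, the widest ranges of the log2 share of member UMIs were those of Rps6 (2.40), Rps23 (2.27), Rpl36al (2.20), Rpl6l (1.75) and Rps4x (1.60), against a median of 0.610 over the 76 members. After each type was set against all kept cells of its own library, Rps6 ranked 42, Rps23 ranked 23 and Rps4x ranked 24. The widest ranges were then those of Rpl36al (1.78), Rps27l (1.08), Rpl6l (0.98), Rpl22l1 (0.94) and Rps27 (0.93), with a median of 0.455. Of these 5 genes 4 are paralogs or copies of standard members, and some of their extremes rested on few UMIs. Rpl6l was highest in fibroblast-like cells (0.45 ± 0.63, SD, n = 4), from 3 and 6 UMIs in the single index libraries, and lowest in plasma-like cells (-0.53 ± 0.65, n = 3), from 1 UMI in day 1 replicate 1. The T cell-like value of Rps27l rested on 8 and 39 UMIs and that of Rpl22l1 on 15 and 40 UMIs.

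Rpl36al, an intronless copy of the X-linked Rpl36a, had its highest share in plasma-like cells, 1.02 ± 0.42 (SD, n = 3 libraries) on the log2 scale above all cells of the library. It was at 147, 232 and 165 CPM in plasma-like cells of both day 1 libraries and day 6, from 13, 35 and 109 UMIs, and at 66.3, 115 and 128 CPM over all cells. The plasma-like value was the higher in 3 of 3 libraries and also in the stroma library, at 354 against 203 CPM. Among the other secretory types, goblet-like cells were at 91.3, 160 and 196 CPM in the same libraries (0.62 ± 0.12 above the library, n = 3), and Paneth-like cells at 63.6, 143 and 20.1 CPM in both day 1 libraries and day 3 (-0.20 ± 0.14, n = 3). Enteroendocrine-like cells, also secretory, were at 0.48 ± 0.31 (n = 3). High values were not confined to secretory types, with endothelial-like cells at 0.48 ± 0.27 (n = 4) and fibroblast-like cells at 0.42 ± 0.49 (n = 4). Rpl36a itself was within 0.2 of the library in every type on this scale. The lowest value of Rpl36al, in lymphatic endothelial-like cells, rested on 0 UMIs among 6597 member UMIs in day 3.

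Rps27l took its highest share in columnar-like cells (0.20 ± 0.21 above the library, SD, n = 4) and lower ones in squamous-like (-0.60 ± 0.22, n = 4), plasma-like (-0.59 ± 0.30, n = 3), macrophage-like (-0.43 ± 0.04, n = 3) and T cell-like cells (-0.88 ± 0.39, n = 2). Rps27 and Rps27rt had their highest shares in T cell-like cells, at 0.72 and 0.69 on the same scale. Per 100 UMIs of Rps27, columnar-like cells had 43.2, 54.2, 17.5 and 27.2 UMIs of Rps27l in the treated libraries, and squamous-like cells 17.8, 34.5, 9.57 and 9.95. The ratio was higher in columnar-like cells of each library, and higher early than late within each library structure. T cell-like cells had 9.88 and 8.41 in day 1 replicate 2 and day 6. Plasma-like cells of the stroma library went the other way from those of the treated libraries. Rps27l was there at 161 CPM, from 35 UMIs, against 140 CPM over all cells of that library. Per 100 UMIs of Rps27 these plasma-like cells had 53.8 of Rps27l, against 18.4 over all cells. Rpl22l1, whose level is known to be held down by Rpl22, was highest in T cell-like cells (0.47 ± 0.10, n = 2) and lowest in goblet-like cells (-0.47 ± 0.36, n = 3), while Rpl22 stayed within 0.2 of the library. Goblet-like cells of the stroma library went the other way, at 275 CPM of Rpl22l1 against 183 CPM over all cells of that library.

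**Figure D5:**
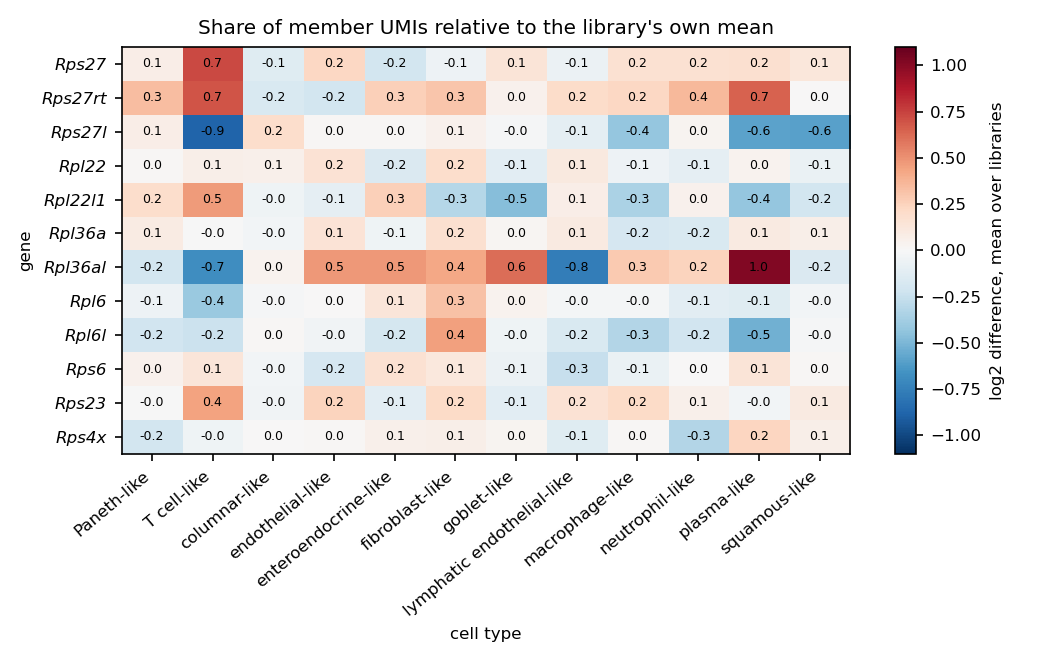
Log2 share of member UMIs of 12 genes (rows) in 12 cell types (columns), relative to all kept cells of the same library and averaged over treated libraries; red is above and blue below the library. Rpl36al is highest in plasma-like cells (1.02) and Rps27l lowest in T cell-like cells (-0.88), while Rps6, which differed most between libraries, stays between -0.26 and 0.17.

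The paralogs were minor beside their standard counterparts in all kept cells. Rpl36al had 5.56 to 21.98 UMIs per 100 of Rpl36a over the 5 libraries, Rpl22l1 8.34 to 30.1 per 100 of Rpl22, and Rpl6l 7.49 to 37.4 per 100 of Rpl6. Rps27l had 15.7 to 48.7 and Rps27rt 11.7 to 37.2 per 100 of Rps27. Rpl7l1 had 2.21 to 9.27 per 100 of Rpl7, and Rps19bp1, whose product binds Rps19, 0.743 to 1.90 per 100 of Rps19. Rpl3l was near its limit of detection, with 1 to 5 UMIs per library. Copies that share most of their sequence can share reads, so the split between Rps27 and Rps27rt and between Rpl6 and Rpl6l is uncertain.

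The stroma library gave higher shares than the treated ones in most types, as single values with no test. Columnar-like cells were at 10.2%, goblet-like cells at 10.6%, fibroblast-like cells at 8.70%, macrophage-like cells at 8.87% and endothelial-like cells at 8.83%. Plasma-like cells, at 5.78%, lay within the range of the treated libraries. The 28 B cell-like cells had 17.3% (95% Wilson interval 16.97 to 17.63), the highest of any type and library. Pericyte-like cells (6.11%), myofibroblast-like cells (6.47%) and telocyte-like cells (6.95%) had the lowest values beside plasma-like cells. The columnar-like cells split into cluster s1, led by Clca3b and with the mitotic genes Ube2c and Top2a among its leading genes, at 14.7%, and cluster s0, with the surface genes Car1 and Slc26a3 among its leading genes, at 6.11%. Treatment, tumor, tissue preparation and library differ at once between this library and the others and cannot be told apart.

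Pseudogene symbols of the members were not counted as members, and some held as many UMIs as a member. The 14 pseudogene symbols held 0.0614% to 0.185% of the UMIs of the treated libraries and 0.482% of the stroma library. Rpl10-ps3 was at 582, 1264, 307 and 1465 CPM in the treated libraries, high where Rpl10 was low. The sum of both symbols ran from 2287 to 2810 CPM (1.23-fold) over the treated libraries, while Rpl10 alone ran over 2.10-fold. Rpl13-ps3 was at 419, 97.5, 266 and 87.7 CPM, high where Rpl13 was low (497, 722, 378 and 823 CPM), and their sum ran from 644 to 916 CPM. Rps2-ps6 was at 161 and 175 CPM in the dual index treated libraries and at 2.93 and 2.10 CPM in the single index ones, beside 1578 to 3576 CPM of Rps2. Rpl9-ps6 reached 409 CPM in the stroma library, beside 1528 CPM of Rpl9. Rps18-ps3 was at 1781 CPM in the stroma library, above Rps18 itself at 676 CPM, and at 0.3003 to 1.74 CPM in the treated libraries. The shares by library with these symbols added were 6.71%, 6.58%, 6.43%, 8.16% and 9.93%, in the same order.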

How the data were processed

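Each deposited table gave unnormalized UMI counts of the genes in every barcode of 1 inDrop library, which the authors made with dropEst on GRCm38.85 (strand setting not given in the sources used here). The authors state limits of 500 genes and 15% mitochondrial counts, and barcodes beyond them were removed here. The members, lists and markers were chosen with earlier results of these data known, and the rule that names clusters was set after seeing the data. Genes with the widest range over types, the paralogs, the 5 highest members and the most changed members of each contrast were named, except for a member that is not reported here.

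Cells of the treated libraries were clustered together and the stroma library on its own, in Python 3.11.15 with leidenalg 0.10.2, igraph 0.11.9, scikit-learn 1.9.0, scipy 1.17.1 and numpy 2.4.6 (Leiden at resolution 1), without the members among the variable genes. No doublets were removed. Cell cycle lists came with Seurat. Counts were summed per library and type (at least 10 cells) and tested over all genes with edgeR 4.0.16 (TMM, filterByExpr, quasi-likelihood, Benjamini-Hochberg, threshold 0.05) in R 4.3.3, checked on simulated data. DESeq2 1.42.0, limma 3.58.1 (used by edgeR), other scalings, filters, cell limits, resolutions and leaving out each library were alternatives. Shares were compared by exact permutation over libraries. The labels do not say that the libraries came from separate animals, and the study calls them biological replicates. Columnar-like sums without clusters t0 and t5 and the comparison within clusters were added after seeing the data. Gene positions are of GRCm38. Figures used matplotlib 3.10.9.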

Additional observations from a re-analysis of the deposited data

Results flagged for a closer look

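The late minus early member share went opposite ways in columnar-like cells (-0.559 points; 6.65% and 6.68% early, 5.97% and 6.24% late) and in fibroblast-like cells (1.83 points). The difference of these differences was 2.38 points (exact permutation of 2 against 2 libraries, p = 0.333, the smallest possible), so it did not pass a threshold of 0.05, and every late library lay below every early one in columnar-like and above in fibroblast-like cells. By the median over cells the columnar-like difference was -0.0184 points and the fibroblast-like one 1.49 points. Fibroblast-like sums held 14 to 56 cells a library.

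Outside the members, the pseudogene symbol Rps18-ps3 was at 1781 CPM in the normal colon stroma library and at most at 1.74 CPM elsewhere, and Rpl10-ps3 was at 1465 CPM in day 6. Both were noted because their signal lies in symbols the member rule leaves out.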

How the results depend on the processing

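Of 212 alternatives for shares and counts, 175 were counted as kept. For a share this meant the same sign only, since no permutation p could pass 0.05 and size was not compared. For a count it meant staying within a set fold of the main count. Of 491 alternatives for single named members 369 kept direction and side of the threshold, 108 lost and 8 gained a call, and 6 changed sign. No paired analysis was possible because the late libraries carry no replicate numbers; index structure served as a block instead. Late minus early over all cells was -0.239 within single index (leaving out 1 library, -0.140 to 1.47), in squamous-like cells -1.14 (-0.522 to 2.79), and cycling minus other in squamous-like cells -0.0429 by the median over cells. Late against early, 1 member was called in columnar-like cells by DESeq2 and without a filter, and 1 in squamous-like cells by both and with the structure block; leaving out 1 library gave 0 to 1 in these types and in fibroblast-like cells. Squamous-like against columnar-like calls were 38 with total counts, 38 without a filter, 30 without clusters t0 and t5, and 2 to 31 leaving out 1 library. Neutrophil-like calls were 0 in DESeq2 (0 to 2 leaving out 1 library), fibroblast-like calls 17 without a filter (0 to 2), and T cell-like calls 0 in DESeq2, 19 with total counts, 6 with RLE and 0 without a filter; leaving out 1 library left 1 pair there and no fit. Cycling columnar-like calls were 16 in DESeq2, 68 with total counts, 15 without a filter and 7 to 21 leaving out 1 library. For calls between cell types and by cycling state, the shares of all genes under these alternatives are not given. These counts show only how the calls depend on the setting. Late minus early log2 changes of named members that changed sign did so when 1 library was left out: over these fits Rps4x ran from -1.20 (without day 6) to 1.49 in columnar-like and from -1.48 (without day 6) to 1.63 in squamous-like cells, Rpl23 from -0.568 to 1.51 and from -0.250 to 1.57 (both lowest without day 3), and, in squamous-like cells, Rps3a1 from -2.16 to 0.287 (without day 1 replicate 2) and Rps6 from -2.18 (without day 6) to 3.13. Total-count scaling moved the median of all genes by 0.214 in cycling columnar-like cells. The causes were not tested. With 2 libraries a group no share difference can reach p under 0.333, cell types are rebuilt, and clusters hold mostly 1 library.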
